A study of Mus musculus with 12 samples.

Results

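The 10 genes studied here belong to the node of Ranvier and its flanks, and their RNA was followed in myelin purified from mouse brain. They were taken by symbol from the table of normalized read counts and are Scn1a, Scn2a1, Scn8a, Nfasc, Cntn1, Cntn2, Cntnap1, Cntnap2, Ank3 and Sptbn4, 10 of the 21937 genes listed. Sptbn4 is listed under its older symbol Spnb4. All 10 were above the minimum mean of 10 normalized read counts set for a test, as were 14634 genes in all.

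Myelin is the stack of membrane that oligodendrocytes wrap around axons. A light membrane fraction rich in myelin was prepared on sucrose gradients from brains of wild-type male c57Bl6/N mice at postnatal day 18 (P18), day 75 (P75), 6 months and 24 months, and its RNA was sequenced in 3 libraries per age, 12 in all. No treatment or mutation separates the groups, and age is the only difference named. The library numbers in the labels run consecutively within each age. Whether the libraries of an age were handled as a set is not stated, and such a set could not be told apart from age. The 6-month libraries come from individual mice. For the other ages it is not stated which mice gave which library, so the p-values measure the spread between these libraries. The normalized read count is the number of reads on a gene divided by a size factor of the library, and it is not corrected for transcript length.

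The node of Ranvier is the short bare gap between myelin segments where the action potential is renewed. Voltage-gated sodium channels are packed there and are held by ankyrin G and βIV spectrin under the axonal membrane, together with a neuronal form of neurofascin. On each side lies the paranode, where loops of the oligodendrocyte are joined to the axon: contactin and Caspr on the axon bind a glial form of neurofascin. Further out, at the juxtaparanode, Caspr2 and TAG-1 are found with voltage-gated potassium channels under the compact myelin. As nodes mature, the sodium channel Nav1.6 takes the place of Nav1.2 at many of them. Most of these proteins are made by neurons, and some of them, such as neurofascin and TAG-1, are also made by oligodendrocytes. A read count per gene cannot separate the glial from the neuronal form of neurofascin, nor the forms of ankyrin G, and in bulk RNA fewer cells or sheaths of a kind cannot be told apart from less RNA in each.

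The libraries held 20299052 to 27214385 reads on genes, and 16949 to 17261 genes had at least 1 read. The smallest number of reads behind any value of the 10 genes was 729 and the largest 14523. Mbp, the gene of myelin basic protein, took 9.47% to 20.8% of the reads at P18 and 4.76% to 8.48% at the later ages. All 15 myelin marker genes had a mean over 100 at every age, but so had all 17 neuronal, 11 astrocyte and 12 microglia markers, so RNA typical of other cells was present as well. The summed level of the neuronal markers in normalized read counts ran from 243966 to 292293 over the P18 libraries, from 263353 to 298372 over those of P75, from 271675 to 283419 at 6 months and from 245334 to 259467 at 24 months. Snap25, a synaptic gene, was the most abundant gene of that sum. Its mean normalized read count was 109014 ± 11310 in P18 libraries, 141430 ± 10020 in P75 libraries and, at the later ages, 88328 ± 1195 and 91614 ± 1371. The mean sum was 275283 at P75 and 278401 at 6 months, while Snap25 fell, so the sum did not follow this gene in that step. From P18 to P75 both rose, the mean sum from 262337 and Snap25 by more, so the other neuronal markers together fell. A sum weighs abundant genes most and can differ from the median log2 change of the list, which is given with the other markers. None of the marker genes was at 0 in all libraries. How much of the RNA of the 10 genes came from axons, cell bodies or oligodendrocytes was not tested.

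The genes lie on 7 chromosomes of the assembly NCBIM37 (mm9). Scn1a (chr2:66108838-66278897, minus strand, 28 merged exons) and Scn2a1 (chr2:65458914-65605504, plus strand, 27 merged exons) both lie on chromosome 2. Nfasc (chr1:134461268-134638374, 34 exons) and Cntn2 (chr1:134406002-134439517, 23 exons) both lie on the minus strand of chromosome 1. Cntn1 (chr15:91881596-92172398, 26 exons) and Scn8a (chr15:100763860-100876360, 30 exons) lie on the plus strand of chromosome 15. Cntnap1 (chr11:101031837-101052038, plus, 25 exons) is compact, with a span of 20.2 kb, while Cntnap2 (chr6:45010060-47251368, plus, 26 exons) spans 2241 kb. Ank3 lies at chr10:68996970-69490184 (plus, 46 exons) and Sptbn4 at chr7:28141402-28232705 (minus, 40 exons). Cntnap1 shares 233 exon bases with Plekhh3 on the other strand and Sptbn4 134 with Gm20479 on its own strand. Reads in these bases could be lost or shared in the counting.

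The 250 bases before the transcription start are shown for the gene with the largest change over life and for the gene that was lower at the end of life, a choice made after the values were seen. The sequences are those of RefSeq for GRCm38.p6, chr2:66440838-66441087 (minus strand) for Scn1a and chr1:132707327-132707576 (minus strand) for 1 of 2 starts of Nfasc, and capitals mark the GC box GGGCGG, which was searched on both strands.
Scn1a: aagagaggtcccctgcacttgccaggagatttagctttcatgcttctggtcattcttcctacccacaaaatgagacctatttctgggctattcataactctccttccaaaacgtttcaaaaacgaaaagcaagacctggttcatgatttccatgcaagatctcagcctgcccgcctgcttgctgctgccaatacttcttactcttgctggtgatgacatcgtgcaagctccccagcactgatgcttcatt
Nfasc: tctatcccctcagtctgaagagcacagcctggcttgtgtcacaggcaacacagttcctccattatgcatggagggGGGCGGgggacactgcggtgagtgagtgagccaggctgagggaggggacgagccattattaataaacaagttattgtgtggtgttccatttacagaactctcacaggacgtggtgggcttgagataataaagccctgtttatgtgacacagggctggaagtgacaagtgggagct
The Nfasc window shown held 1 GC box and the Scn1a window 0, and the window of the other listed Nfasc start (chr1:132642859-132643108) held 0. Promoters were listed for 8 of the 10 genes, with 17 starts in all, and 6 of the 17 windows held a GC box, where 32.7% of 32851 windows of all genes did. These windows belong to 3 of the 8 genes, Nfasc, Cntnap2 and Sptbn4, the last with a box at each of its listed starts. The motif TATAAA, on both strands, was in 2 of the 17 windows and in 12.4% of all. No promoter of Cntnap1 or Ank3 was listed. The starts are those listed by RefSeq, and whether transcripts begin at each of them was not tested.

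The sodium channel genes were all lowest at P18 and highest at 24 months. Scn1a encodes Nav1.1, which is abundant in inhibitory neurons. Normalized read counts of Scn1a were 1885, 1967 and 2499 at P18, 4451, 4943 and 5354 at P75, 4595, 3789 and 4316 at 6 months, and 6654, 6961 and 6294 at 24 months (replicates 1, 2 and 3). The P18 libraries lay below all others and the 24-month libraries above all others, while those of P75 and 6 months overlapped. The mean of Scn1a rose from 2117 ± 333 to 4916 ± 452 (SD, n = 3) between P18 and P75, by 1.22 on the log2 scale (SE 0.11, limma with Benjamini-Hochberg adjustment, adjusted p = 1.1e-06). From P75 to 6 months its log2 change was -0.22 (limma, adjusted p = 0.11), which passed the threshold of 0.1 when P18 replicate 3, P75 replicate 1 or 6-month replicate 1 was left out (limma, adjusted p = 0.045, 0.065 and 0.078). It then rose again, to 6636 ± 334 at 24 months, a log2 change of 0.65 (SE 0.11, limma, adjusted p = 0.0018). Over the whole span the log2 change was 1.66 (SE 0.11, limma, adjusted p = 3.6e-09), the largest among the 10 genes.

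Scn2a1 encodes Nav1.2, the channel of immature nodes and of thin axons. For Scn2a1, the libraries gave normalized read counts of 1999, 2020 and 2337 at P18, 2962, 2750 and 2943 at P75, 4606, 3784 and 3975 at 6 months, and 4064, 4556 and 4499 at 24 months. The first 3 ages did not overlap, and the libraries of 6 and 24 months did. Scn2a1 rose by a log2 change of 0.45 from P18 to P75 (SE 0.09, limma, adjusted p = 0.0012) and by 0.51 from P75 to 6 months (SE 0.09, limma, adjusted p = 0.00027). From 6 to 24 months the change was 0.09, with a 95% interval of -0.11 to 0.29. Its rise came in 2 steps of like size, whereas most of the rise of Scn1a lay before P75 and after 6 months.

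Scn8a encodes Nav1.6, the main channel of mature nodes. Scn8a had normalized read counts of 2468, 2550 and 3397 at P18, 4294, 4590 and 3788 at P75, 5347, 4284 and 4519 at 6 months, and 4733, 5116 and 5652 at 24 months. Only the P18 libraries stood apart from all others. Scn8a rose by a log2 change of 0.60 from P18 to P75 (SE 0.12, limma, adjusted p = 0.0011), and the later steps were 0.16 and 0.13 (limma, adjusted p = 0.30 and 0.47). Over the whole span Scn8a rose by 0.89 and Scn2a1 by 1.05 on the log2 scale (limma, adjusted p = 1.1e-05 and 7.5e-08).

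**Figure D1:**
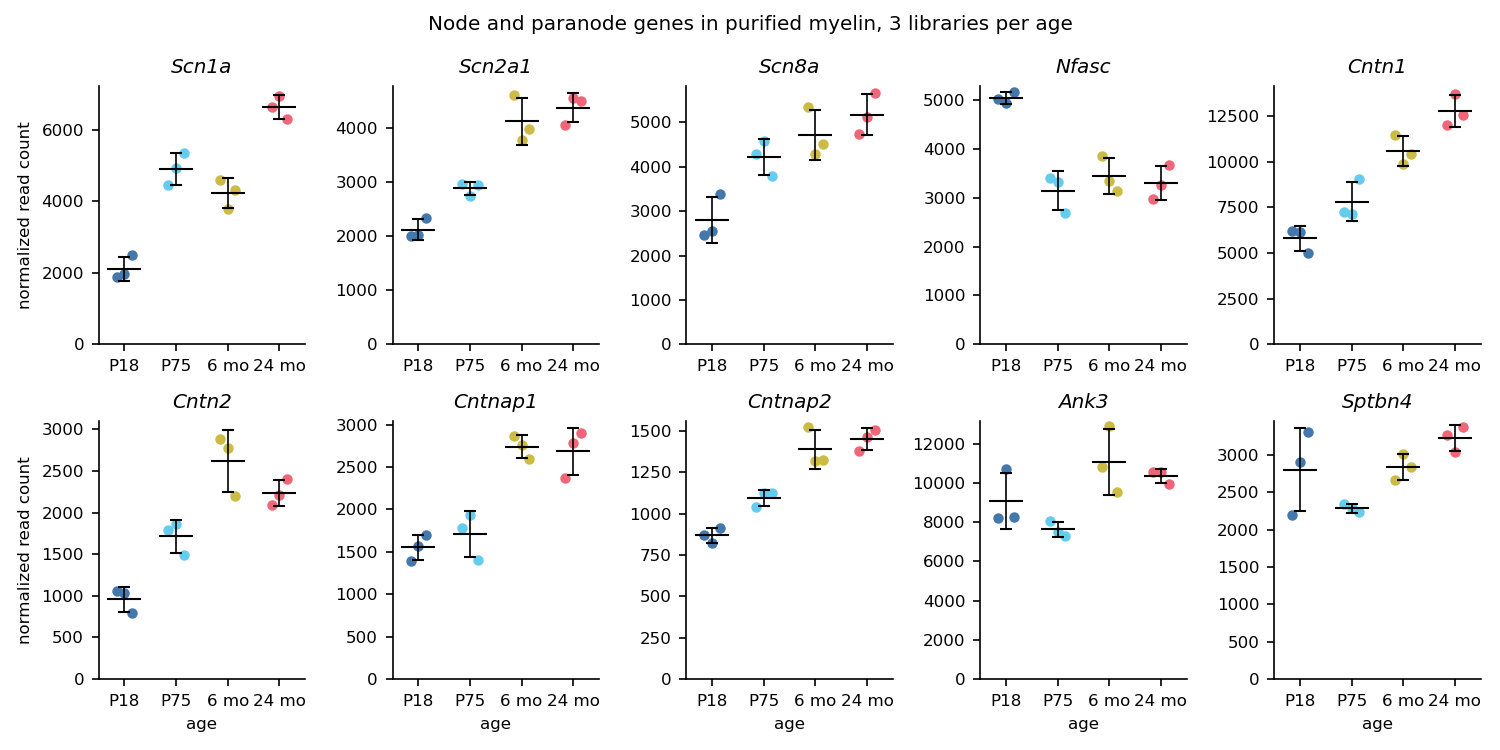
Normalized read count (y axis, linear from 0) of each of the 10 genes at P18, P75, 6 months and 24 months, with 1 point per library and the mean ± SD of 3 libraries. Scn1a is highest at 24 months, Cntn1 climbs at each age, and Nfasc is highest at P18, where its 3 libraries lie between 4933 and 5163.

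The scaffold genes had their lowest mean at P75 and were not called changed over the whole span. Ank3 encodes ankyrin G, which gathers sodium channels at nodes and at the axon initial segment. Ank3 was measured at normalized read counts of 8238, 10731 and 8264 at P18, 8074, 7510 and 7318 at P75, 10817, 12891 and 9522 at 6 months, and 10568, 10563 and 9965 at 24 months. All P75 libraries were below all others, while the other ages overlapped with one another. From P18 to P75 the log2 change was -0.24 (limma, adjusted p = 0.13), and leaving out P18 replicate 1 or 3 or 6-month replicate 2 brought the adjusted p of limma to 0.094, 0.06 and 0.097. Ank3 then rose from 7634 ± 393 at P75 to 11076 ± 1699 at 6 months (SD, n = 3), a log2 change of 0.53 (SE 0.12, limma, adjusted p = 0.0017). From P18 to 24 months the log2 change was 0.20, with a 95% interval of -0.05 to 0.46 (limma, adjusted p = 0.16), and 0.33 without P18 replicate 2 (limma, adjusted p = 0.027).

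Sptbn4 encodes βIV spectrin, which ties ankyrin G to the actin cortex. The libraries gave Sptbn4 normalized read counts of 2201, 2898 and 3308 at P18, 2347, 2284 and 2229 at P75, 2664, 3005 and 2834 at 6 months, and 3266, 3033 and 3368 at 24 months. P18 was the most scattered age, with replicate 1 below the P75 libraries and replicate 3 among those of 24 months. Sptbn4 fell by 0.27 on the log2 scale from P18 to P75 (SE 0.11, limma, adjusted p = 0.067), a call that was lost without P18 replicate 2 or 3 or P75 replicate 2 or 3 (limma, adjusted p = 0.17, 0.28, 0.12 and 0.15). With each library scaled to the same total the change was -0.15 (limma, adjusted p = 0.40). The call was also lost in a fit of the 6 libraries of these ages and with quantile normalization (limma, adjusted p = 0.14 and 0.11). It rose by 0.31 from P75 to 6 months (SE 0.11, limma, adjusted p = 0.033), which was lost without 6-month replicate 2 (limma, adjusted p = 0.11). From P18 to 24 months the log2 change was 0.22 (limma, adjusted p = 0.11), and 0.35 without P18 replicate 3 (limma, adjusted p = 0.0064).

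The genes of the paranodal junction did not move together. Nfasc, the gene of the glial and neuronal neurofascins, was the exception among the 10 genes: it was highest at P18. Normalized read counts of Nfasc were 5019, 4933 and 5163 at P18, 3407, 3331 and 2686 at P75, 3857, 3344 and 3130 at 6 months, and 2976, 3251 and 3667 at 24 months. The P18 libraries lay above all others, and the later ages overlapped. Nfasc fell from 5038 ± 116 to 3142 ± 396 (SD, n = 3) between P18 and P75, a log2 change of -0.69 (SE 0.11, limma, adjusted p = 0.00012). The next steps were 0.13 and -0.06 (limma, adjusted p = 0.30 and 0.73), so the difference of -0.62 between P18 and 24 months was already there at P75 (SE 0.11, limma, adjusted p = 0.00011).

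Cntn1, the gene of the glycosylphosphatidylinositol-linked contactin of the paranode, was lowest at P18 and higher at each later age without overlap between any of them. Cntn1 was measured at normalized read counts of 6214, 6176 and 5017 at P18, 7239, 7140 and 9052 at P75, 11474, 9863 and 10412 at 6 months, and 11991, 13720 and 12573 at 24 months. It rose by a log2 change of 0.43 from P18 to P75 and of 0.44 from P75 to 6 months (limma, adjusted p = 0.0074 and 0.0042). From 6 to 24 months the change was 0.27, with a 95% interval of 0.03 to 0.51 (limma, adjusted p = 0.11). That step passed the threshold without P18 replicate 3 or P75 replicate 3, which belong to other ages and enter through the shared spread (limma, adjusted p = 0.053 and 0.075). Over the whole span Cntn1 rose by 1.14 on the log2 scale (SE 0.12, limma, adjusted p = 3.2e-07), from 5802 ± 680 to 12761 ± 880.

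Cntnap1 encodes Caspr, the axonal partner of contactin. Cntnap1 had normalized read counts of 1394, 1569 and 1694 at P18, 1786, 1937 and 1408 at P75, 2870, 2759 and 2593 at 6 months, and 2366, 2786 and 2902 at 24 months. The early ages overlapped with each other, as did the late ages, and every early library was below every late library. The log2 change from P18 to P75 was 0.13 (limma, adjusted p = 0.39), and 0.26 without P75 replicate 3 (limma, adjusted p = 0.069). Cntnap1 then rose by 0.69 from P75 to 6 months (SE 0.12, limma, adjusted p = 0.00012), the largest of the 10 changes in that step, and its change from 6 to 24 months was -0.03.

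The axonal partners at the juxtaparanode both rose early and again by 6 months. Cntn2 encodes TAG-1, which is present on the axon and on the glial membrane facing it. For Cntn2, the libraries gave normalized read counts of 1060, 1034 and 789 at P18, 1786, 1865 and 1496 at P75, 2888, 2779 and 2196 at 6 months, and 2093, 2211 and 2405 at 24 months. Replicate 3 was the lowest library at P18, at P75 and at 6 months. Cntn2 rose by a log2 change of 0.84 from P18 to P75 (SE 0.13, limma, adjusted p = 8.5e-05) and of 0.61 from P75 to 6 months (SE 0.13, limma, adjusted p = 0.00079). From 6 to 24 months the log2 change was -0.22 (limma, adjusted p = 0.23), and -0.34 without 6-month replicate 3 (limma, adjusted p = 0.077).

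Cntnap2 encodes Caspr2, which holds the potassium channels at the juxtaparanode. The libraries gave Cntnap2 normalized read counts of 871, 824 and 911 at P18, 1037, 1125 and 1123 at P75, 1526, 1316 and 1323 at 6 months, and 1377, 1466 and 1508 at 24 months. At P18 the SD of Cntnap2 in normalized read counts was the smallest of the 10 genes, as was its mean. Relative to the mean, Nfasc was narrower at P18, with an SD of 2.30% of the mean against 5.03% for Cntnap2. For Cntnap2, P18 and P75 overlapped with no other age. Cntnap2 rose by 0.33 and then by 0.34 on the log2 scale (SE 0.08 each, limma, adjusted p = 0.0046 and 0.0028). The last step was 0.07, with a 95% interval of -0.11 to 0.24. Over the whole span Cntn2 rose by 1.23 and Cntnap2 by 0.74 (limma, adjusted p = 3.9e-07 and 1.1e-06), and Cntnap1 by 0.79 (limma, adjusted p = 1.8e-05).

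The consecutive comparisons share libraries, since each middle age enters a pair of them, and the counts below are read against those of all genes tested. From P18 to P75, 6 of the 10 genes rose (Scn1a, Scn2a1, Scn8a, Cntn1, Cntn2, Cntnap2) and 2 fell (Nfasc, Sptbn4), where 48.8% of all genes tested were called changed, 25.9% higher and 22.9% lower (limma at an adjusted p under 0.1). Their median log2 change was 0.38, against 0.02 for all genes. The libraries of both ages did not overlap for 8 of the 10 genes, against 47.7% of all genes (25.1% higher, 22.6% lower), with Ank3 among the 8 and Sptbn4 not. When each library was scaled to the same total, the median of all genes in this step was 0.14, and 72.2% of all calls were higher in place of 53.0%.

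From P75 to 6 months, 7 of the 10 genes rose and 0 fell, where 60.6% of all genes were called, 31.2% higher and 29.4% lower. Scn1a, Scn8a and Nfasc were the genes not called. The median log2 change was 0.39 for the 10 genes and 0.01 for all genes, and 7 were higher without overlap, where 63.1% of all genes did not overlap, 32.1% higher and 30.9% lower. From 6 to 24 months, Scn1a alone was called at an adjusted p under 0.1, where 29.3% of all genes were, 16.6% higher and 12.7% lower. The libraries of Scn1a, Cntn1 and Sptbn4 did not overlap between these ages, all 3 higher at 24 months, against 43.5% of all genes, 23.2% higher and 20.3% lower. Between P18 and 24 months, 7 rose and 1 fell, where 69.0% of all genes were called, 34.7% higher and 34.3% lower, and 8 did not overlap (7 higher, 1 lower), against 66.6%, 33.3% higher and 33.3% lower. The median was 0.84 for the 10 genes and -0.01 for all, and Scn1a, Scn2a1, Cntn1 and Cntn2 changed by more than 2-fold. Counted in either direction, the share called was near that of all genes in the second step and over the whole span, with 7 and 8 of 10 against 60.6% and 69.0%.

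**Figure D2:**
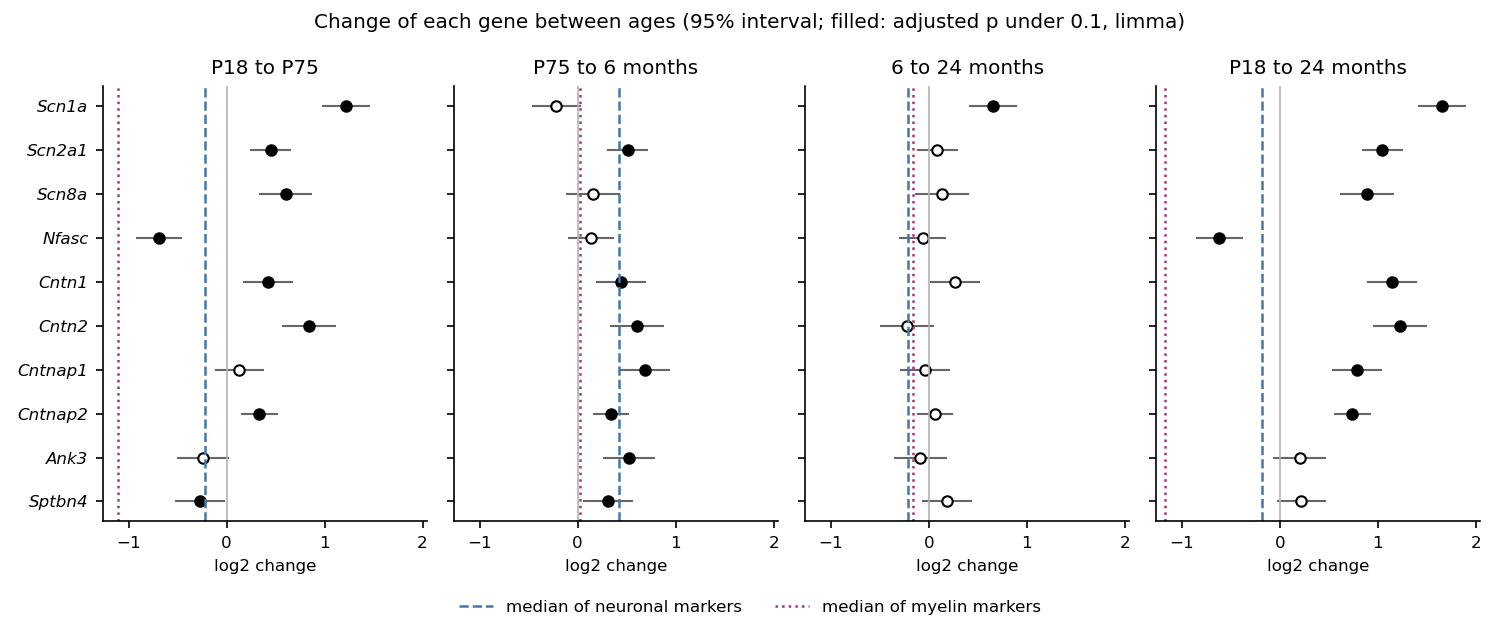
Log2 change of the 10 genes in each of the 4 comparisons (x axis), with the 95% confidence interval of limma as a bar; filled points passed an adjusted p of 0.1, open points did not, and the dashed and dotted lines are the medians of the neuronal and myelin markers. Nfasc and Sptbn4 are the filled points left of 0 from P18 to P75, and Scn1a, at 0.65, is the filled point of the step from 6 to 24 months.

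Levels of different genes can be compared only per length, so each normalized read count was divided by the kilobases of merged exons. At P18 the order was Ank3 (855 ± 135 per kb), Cntn1 (615 ± 72.1), Nfasc (485 ± 11.2), Sptbn4 (288 ± 57.5), Cntnap1 (264 ± 25.7), Scn8a (231 ± 42.4), Scn2a1 (229 ± 20.5), Scn1a (191 ± 30.1), Cntnap2 (121 ± 6.09) and Cntn2 (101 ± 15.6; SD, n = 3). The first 3 did not overlap with their neighbours in this order, and those from Sptbn4 to Scn2a1 each overlapped with the next. At 24 months Cntn1 led with 1353 ± 93.2 per kb, followed by Ank3 (976 ± 32.7) and Scn1a (599 ± 30.1), and these overlapped with no neighbour. Nfasc had moved from place 3 to place 8 (318 ± 33.5 per kb) and Scn1a from place 8 to place 3. Exon lengths are from the annotation and not from the transcripts present, so the order depends on which ends and forms are used.

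As shares of the 3 sodium channel genes per kb, Scn1a made up 29.3% ± 0.45, 40.2% ± 3.05, 31.5% ± 1.10 and 40.0% ± 2.39 at the 4 ages in order (SD, n = 3). The share of Scn2a1 was 35.3% ± 1.77, 28.3% ± 1.65, 36.6% ± 0.51 and 31.5% ± 0.72 at the same ages. That of Scn8a was 35.4% ± 1.35, 31.6% ± 3.07, 31.9% ± 0.66 and 28.4% ± 1.93. The 3 shares add up to 100% in each library, so a higher share of Scn1a lowers the others by construction. The share of Scn8a was lower at 24 months than at P18 without overlap of the libraries, 27.3% to 30.6% against 34.5% to 36.9%.

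**Figure D3:**
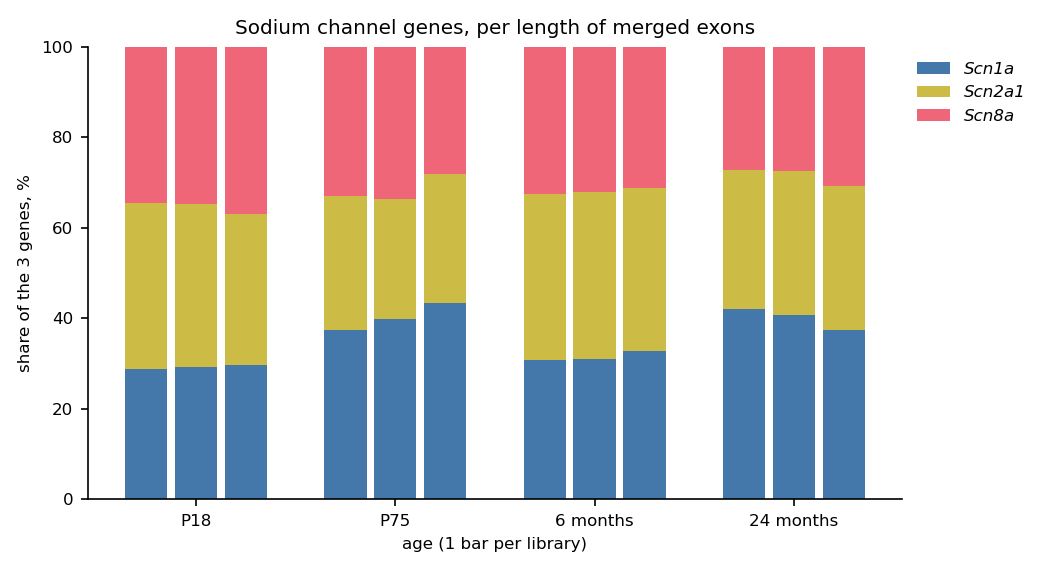
Share of Scn1a, Scn2a1 and Scn8a (y axis, % of the 3 levels per kb of merged exons) in each of the 12 libraries, 1 bar per library, grouped by age. The Scn1a part of the bar is tallest at P75 and 24 months, where it is 37.4% to 43.4%, and 28.9% to 32.7% at P18 and 6 months.

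Ratios of a pair of genes within a library do not depend on its size factor. In all, 6 ratios of levels per kb were compared across the 4 ages by an exact permutation test of the F statistic on the log2 ratio, over all 15400 divisions of the 12 libraries, in which any pattern over ages counts and the smallest possible p is 6.5e-05. The ratios were read at a p under 0.05 after adjustment over the 6, a stricter threshold than the 0.1 used for single genes. The ratio of Scn8a to Scn2a1, the channels of the mature and the immature node, was 1.0 ± 0.09, 1.12 ± 0.15, 0.87 ± 0.01 and 0.90 ± 0.05 from the youngest to the oldest age (exact permutation p = 0.022, adjusted over the 6 ratios 0.033). Leaving out any library but P18 replicate 3 or P75 replicate 3 took its adjusted exact p to between 0.05 and 0.09. The ratio of Scn1a to Scn2a1 was 0.83 ± 0.06, 1.43 ± 0.15, 0.86 ± 0.04 and 1.27 ± 0.10 (exact permutation p = 0.0016, adjusted 0.0049).

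The ratios with neurofascin on top were highest at P18. Nfasc over Cntnap1, its partner across the paranodal junction, was 1.85 ± 0.17 at P18, then 1.04 ± 0.06, 0.71 ± 0.04 and, in the oldest mice, 0.70 ± 0.03 (exact permutation p = 0.00052, adjusted 0.0031), the smallest p of the 6. Nfasc over Ank3, its partner at the node, was 0.58 ± 0.09, 0.42 ± 0.04, 0.32 ± 0.05 and 0.33 ± 0.05 (exact permutation p = 0.0034, adjusted 0.0069). In the first of these ratios P18 and P75 each stood apart from all other ages.

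The ratios of the paired relatives at the paranode and the juxtaparanode did not pass that threshold. Cntnap1 over Cntnap2 was 2.19 ± 0.20, 1.91 ± 0.33, 2.42 ± 0.13 and 2.26 ± 0.14 (exact permutation p = 0.077, adjusted 0.077). Cntn1 over Cntn2 was 6.13 ± 0.26, 4.70 ± 1.24, 4.13 ± 0.61 and 5.78 ± 0.49 (exact permutation p = 0.065, adjusted 0.077). The P75 value rests on replicate 3, at 6.12, while the other P75 libraries were at 3.87 and 4.1, and without it the adjusted exact p was 0.0094.

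**Figure D4:**
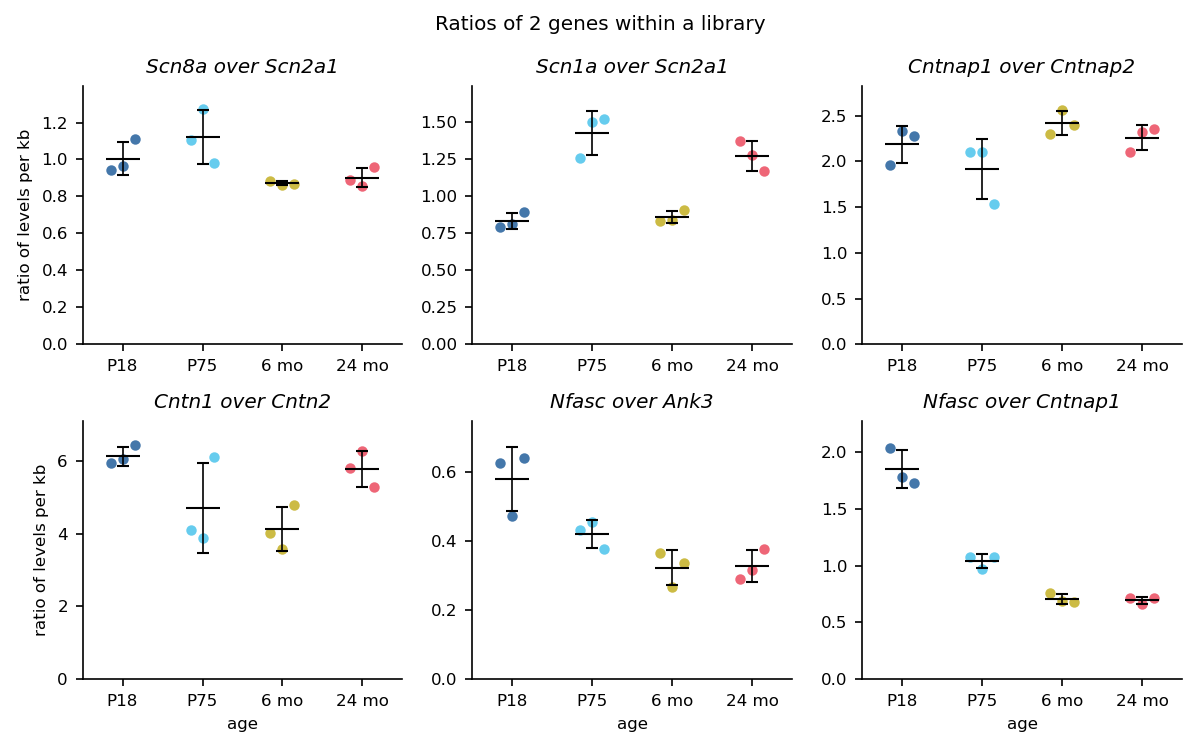
Ratio of the levels per kb of 6 pairs of genes (y axis, from 0) at the 4 ages, with 1 point per library and the mean ± SD of 3 libraries. Nfasc over Cntnap1 is 1.72 to 2.04 at P18 and 0.66 to 0.76 at 6 and 24 months.

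Between members, the time courses of Scn2a1 and Cntnap2 were the closest, with a root mean square difference of 0.14 between their centred log2 values over the 12 libraries. Scn8a and Cntnap2 differed by 0.15 and Ank3 and Sptbn4 by 0.20, while Scn1a and Nfasc were the farthest apart, at 0.89. Among the 11295 other genes with a mean of at least 100, Sorcs1 (0.06), Lgi1 and Tmem57 came nearest to Scn2a1, and Cacna1g (0.05), a calcium channel gene, Dync1h1 and Ntrk3 nearest to Scn8a. Plxna1 (0.07) was nearest to Cntnap1, Slc38a3 (0.11) to Cntn2 and Insig2 (0.08) to Cntn1. H2-T23 (0.08), Nptn and B3galt2 were nearest to Scn1a, and Evl (0.09), Tmod3 and Snx12 to Nfasc. Paqr8 (0.08) was nearest to Ank3 and Bzrap1 (0.10) to Sptbn4. All these genes share the 12 libraries and their size factors.

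Other genes of the node are given with the shares called among all genes. Of 14 nodal neighbours, 5 rose and 3 fell from P18 to P75, 9 rose and 1 fell from P75 to 6 months, and 2 rose and 3 fell from 6 to 24 months, with median log2 changes of 0.14, 0.70 and -0.06. Among all genes 48.8%, 60.6% and 29.3% were called in these steps, so calls were most frequent in the second step there as well. Of all genes, 25.9%, 31.2% and 16.6% rose and 22.9%, 29.4% and 12.7% fell. Over the whole span 9 of the 14 rose and 3 fell, where 34.7% of all genes rose and 34.3% fell. Scn4b, a β subunit of the sodium channel, rose from P18 to P75 by 0.95 on the log2 scale (limma, adjusted p = 7.4e-06), from 1119 ± 157 to 2156 ± 168 normalized read counts. The β subunit genes Scn3b and Scn2b rose between P75 and 6 months, by 0.96 and 0.90 (limma, adjusted p = 6.1e-06 and 4e-06). Nrcam, a cell adhesion partner of neurofascin at the node, rose over the whole span by 1.51 (limma, adjusted p = 5.3e-09), from 1482 ± 23.9 to 4258 ± 589. Scn3a, a further sodium channel gene, rose by 0.80 from P18 to P75 and by 0.39 from 6 to 24 months (limma, adjusted p = 6.7e-05 and 0.029). Fgf13, which binds sodium channels, and Trim46, which orders microtubules in the proximal axon, fell over the whole span by 0.86 and 0.24 (limma, adjusted p = 2.2e-07 and 0.085).

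At the juxtaparanode, 8 of 10 neighbours rose from P75 to 6 months and 0 fell, while 1 rose and 5 fell from 6 to 24 months. Of all genes tested, 31.2% rose and 29.4% fell in the former step, and 16.6% rose and 12.7% fell in the latter. Kcna1, a voltage-gated potassium channel, rose by 0.80 between P75 and 6 months (limma, adjusted p = 2.1e-06), from 2238 ± 68.8 to 3903 ± 377 normalized read counts. Kcna2 was measured at a low level, 21.8 ± 7.66 at P75 and 81.9 ± 14.4 at 6 months. Adam23 and Lgi1, which bind each other in the channel complex, rose over the whole span by 1.29 and 1.06 (limma, adjusted p = 2.6e-09 and 1.5e-07), whereas the scaffolds Dlg4 and Dlg2 fell by 1.0 and 0.69 (limma, adjusted p = 9.3e-07 and 1.4e-05).

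Of 6 genes of the matrix around nodes, 4 rose and 1 fell over the whole span, in which 34.7% of all genes rose and 34.3% fell. Hapln2, the link protein Bral1 of the nodal matrix, rose by 1.37 (limma, adjusted p = 9.6e-09), from 378 ± 36.9 to 973 ± 19.8 normalized read counts, and Omg by 1.10 (limma, adjusted p = 8.5e-09). Of 8 other submembrane scaffolds, 6 rose and 0 fell from P75 to 6 months, and 0 rose and 5 fell from 6 to 24 months, against the same shares of all genes as at the juxtaparanode. Spnb2, the gene of βII spectrin, rose from P18 to P75 by 0.67 (limma, adjusted p = 0.0034), and Epb4.1l2, a band 4.1 relative, fell by 0.70 (limma, adjusted p = 0.00012). All 9 other contactin and Caspr genes rose over the whole span, against 34.7% of all genes, with a median of 1.51, among them Cntn6 by 1.87 and Cntn4 by 1.82 (limma, adjusted p = 4e-09 and 4.4e-10). At each age only 4 of these 9 had a mean over 100, Cntn6 and Cntn4 among them. The others were low, such as Cntnap5a with 9.97 ± 0.84 normalized read counts at P18.

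**Figure D5:**
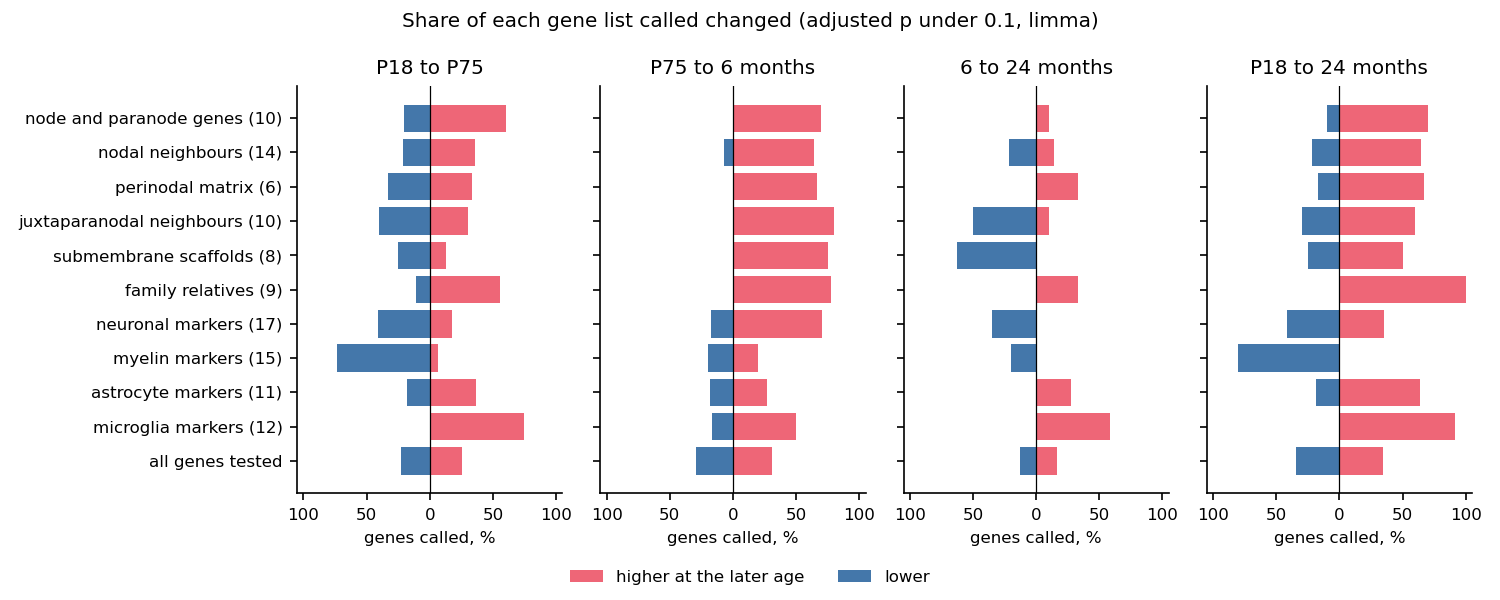
Share of genes (x axis, %) called higher (right) and lower (left) at an adjusted p under 0.1 in each gene list and among all genes tested, for the 4 comparisons, with the number of genes in brackets. Of the node and paranode genes, 7 of 10 are to the right of 0 from P75 to 6 months, and 11 of the 15 myelin markers are to the left from P18 to P75.

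The marker lists changed with age as well, and not always in the same direction as the 10 genes. Of all genes tested, 25.9%, 31.2% and 16.6% rose in the 3 steps and 22.9%, 29.4% and 12.7% fell. Over the whole span 34.7% of all genes rose and 34.3% fell. Of the 15 myelin markers, 11 fell and 1 rose from P18 to P75 (median log2 change -1.11), and their summed level went from between 2528924 and 6272905 normalized read counts to between 1313835 and 1882376. Mbp made up most of that sum. Of the 17 neuronal markers, 3 rose and 7 fell in the first step, 12 rose and 3 fell in the second, and 0 rose and 6 fell in the third, with medians of -0.22, 0.43 and -0.21. Over the whole span 6 of the neuronal markers rose and 7 fell, with a median of -0.18. Of the 12 microglia markers, 9, 6 and 7 rose in the 3 steps, and 2 fell in the second. The summed levels of the microglia markers were 6866 to 7818 at P18 and 17238 to 21200 at 24 months. Of the 11 astrocyte markers, 4 rose and 2 fell in the first step, 3 rose and 2 fell in the second, 3 rose and 0 fell in the third, and 7 rose and 2 fell over the whole span, where Itga7, Slc1a3 and Slc4a4 rose by 1.14, 0.91 and 0.83 on the log2 scale (limma, adjusted p = 7.2e-08, 3.7e-06 and 0.00013). Their summed level overlapped at all ages, 101470 to 122528 at P18 and 105868 to 114886 at 24 months. It rests mostly on Slc1a2 and on Aldoc, which went from 44085 ± 1036 to 29687 ± 780 normalized read counts. Over the whole span 1 of 6 oligodendrocyte precursor markers rose and 1 fell, and 3 of 8 endothelial markers rose and 2 fell. The part of these shifts in the changes of the 10 genes was not tested.

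The genes were also set against the mean log2 level of the neuronal markers in the same library. That mean itself moved, by -0.13, 0.47 and -0.20 over the 3 steps. Its genes were mixed in the second step, where 12 of the 17 rose and 3 fell. Their log2 changes ran from 2.34 for Syt1 and 1.41 for Slc17a7 to -0.68 for Snap25. A gene with a flat level moves against the mean by as much in the other direction. The counts are therefore read beside all genes set against the same mean. At P75, 7 of the 10 genes were higher without overlap than at P18, where 29.9% of all genes were higher and 11% lower, and Nfasc was lower, by 0.56 on the log2 scale. At 6 months 1 gene was higher and 3 were lower without overlap than at P75, where 9.1% of all genes were higher and 62.2% lower. Scn1a (-0.69), Nfasc (-0.34) and Scn8a (-0.32) were those lower, and Cntnap1 (0.22) was higher. From 6 to 24 months 7 of the 10 were higher and 0 lower, with Scn1a at 0.85 and Cntn1 at 0.47, where 44.4% of all genes were higher and 7.34% lower. The mean of the myelin markers fell by 1.07 on the log2 scale between P18 and 24 months. Against it, 9 of the 10 genes were higher at 24 months than at P18 without overlap, by 1.27 for Ank3 up to 2.73 for Scn1a, but so were 77.3% of all genes, and 0.923% were lower. Nfasc was the tenth: its change relative to the myelin markers was 0.45 with overlap, and it overlapped in each of the 4 comparisons.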

How the data were processed

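RNA of purified myelin was sequenced on an Illumina instrument in 12 libraries, 3 at each of 4 ages. Per the labels and methods, the authors used TopHat2 to align to mm9 and HTSeq 0.5.4p1 to count reads per gene, and scaled the counts by size factors from DESeq. The submitters' notes name TopHat2 2.0.8 and SAMtools 0.1.19, while the study's methods give another version of TopHat. The gene annotation and the use of strand are not given in the sources used here. The deposited values, entered as a signal, are these normalized read counts, neither on a log scale nor corrected for length. Within a library 100% of the values were whole multiples of 1 read (tolerance 0.02), which gave the counts of reads. For 3 libraries 1 read was worth close to 1. Pairs of replicates differed by a chi-square of at least 9.17 per gene, far above sampling noise, so each library was counted as 1 sample.

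Ages were compared with limma 3.58.1 (R 4.3.3; empirical Bayes with trend) after log2(normalized read count + 1), in 1 fit over the 12 libraries with age alone. The 14634 genes averaging 10 or more were tested. The false discovery rate was 0.1 (Benjamini-Hochberg over all of them), as in the study's methods. The added 1 shrinks the fold change of low genes. An exact test of 1 gene over 3 against 3 libraries has a smallest p of 0.1. edgeR 4.0.16 and DESeq2 1.42.0 on the recovered reads were alternatives, and the limma fit was tested on simulated data. Exon lengths came from the GENCODE vM1 annotation of NCBIM37 and promoters from RefSeq. The genes and gene lists were chosen with earlier results of these data known. In each list, up to 3 genes called changed with the largest change each way were named per comparison, and for likeness the nearest of the 3 closest genes or all of them. The results of some genes that these rules name are not reported here. Libraries of the same replicate number deviated together weakly between P75 and 6 months (r 0.10 to 0.19 over pairs). In the other comparisons r was -0.21 to 0.03, in part as large in size. The labels do not link the numbers across ages, so no pairing is shown. The replicate number was used as a block only as an alternative.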

Additional observations from a re-analysis of the deposited data

How the results depend on the processing

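Every change of the 10 genes was recomputed under other pseudocounts, filters, scalings and tests, and without each library in turn. Of 400 values under other settings, 385 kept their direction and their side of the threshold, 12 gained a call and 3 lost one; no direction reversed. Without 1 library, 459 of 480 did, and the direction reversed for Nfasc (range -0.14 to 0.023, above 0 without 6-month or 24-month replicate 1), Cntnap1 (-0.093 to 0.054, above 0 without 24-month replicate 1) and Ank3 (-0.19 to 0.030, above 0 without 6-month replicate 2), all from 6 to 24 months and all with an uncalled change near 0. From 6 to 24 months, 3 of the 10 genes were called in a fit of the 6 libraries of these ages (Scn1a, Cntn1 and Sptbn4), 2 with edgeR, 2 with DESeq2, and 1 to 2 with a library left out. All genes called in that step numbered 4287, 2856 at a false discovery rate of 0.05 and 2478 to 5323 with a library left out, the fewest without 6-month replicate 1. With the libraries scaled to the same total, Ank3 and Sptbn4 were called higher at 24 months than at P18 (limma, adjusted p = 0.044 and 0.06), as with quantile normalization (0.045 and 0.089), and 46.4% of the calls of all genes from 6 to 24 months were higher in place of 56.8%. Quantile normalization set the median of all genes from P18 to 24 months at -0.12. The causes were not tested.

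A false discovery rate of 0.05 was applied to the counts of calls: 7 in place of 8 of the 10 genes were then called from P18 to P75, without Sptbn4 (limma, adjusted p = 0.067), and 7, 1 and 8 in the other comparisons, as at 0.1.

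With the replicate number as a block, 6968, 8695, 3996 and 10005 genes were called. From P75 to 6 months the block changed no call of the 10 genes. In the other comparisons Ank3 was called lower from P18 to P75 (limma, adjusted p = 0.096). With the block, the exact permutation test of the ratio of Scn8a to Scn2a1 across all ages had an adjusted p of 0.069. The log2 difference of this ratio between P18 and 24 months was -0.15, and it was not tested by itself. Without 1 library at a time this log2 difference was -0.20 to -0.081, that of Cntnap1 over Cntnap2 -0.028 to 0.10 (reversed without P18 replicate 1) and that of Cntn1 over Cntn2 -0.15 to -0.023.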
